A study of Mus musculus with 6 samples.

Results

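Hepatocyte identity rests on a small circuit of transcription factors, and 9 of its genes were followed here: Hnf4a, Foxa1, Foxa2, Foxa3, Cebpa, Cebpb, Onecut1, Prox1 and Nr2f6. They were chosen by name as liver-enriched factors, and all 9 were found among the 58601 rows of the deposited expression table. RNA came from livers of mice labelled Mdr2 knockout, written Mdr2-HKO in the growth protocol, which lack the phospholipid exporter of the bile canaliculus (gene Abcb4) and develop cholestatic injury. Lycorine is a plant alkaloid of the amaryllis family. One group had 3 libraries from lycorine-treated knockout mice, and the other had 3 libraries from knockout mice given vehicle. Mice were 8 weeks old and received lycorine or vehicle over 2 weeks. Both groups carry the knockout, no wild-type library was analysed here, and the labels state neither the cell type in which the gene was removed nor the sex or dose. Nothing in the labels says that each library is a separate animal, so the p-values rest on a spread between libraries that may be technical. The study's title places lycorine's action on cholestasis in a pathway of transketolase and Atf3.

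HNF4A is a nuclear receptor that occupies the control regions of very many hepatocyte genes, and its loss in adult liver is known to erode hepatocyte function. FOXA proteins open chromatin at liver enhancers as pioneer factors, C/EBP proteins drive metabolic and acute phase genes, and ONECUT1 (HNF6) acts in liver development and in bile duct formation. These factors bind one another's control regions, so their levels are often read together as a measure of the hepatocyte state.

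Levels are in TPM, the usual transcript abundance, a value per gene length scaled to the same sum in each library. TPM keeps no record of sequencing depth, so the depth stays unknown and counting intervals cannot be given. The hepatocyte products albumin (Alb) and transthyretin (Ttr) were abundant in every library, with Alb between 11824 and 19785 TPM in lycorine and between 5039 and 18246 TPM in vehicle, and Ttr between 2816 and 4900 TPM in lycorine and between 1071 and 4102 TPM in vehicle. The targeted gene Abcb4 was listed at 8.32 to 32.2 TPM in lycorine and 10.8 to 43.5 TPM in vehicle, so a gene-level value did not separate the groups and does not check the genotype. Vehicle 3 stood apart: protein-coding nuclear genes made up 51.5% of its TPM, against 63.7% to 78.1% in the other 5 libraries. Rows without a name in the annotation held 10.75% of its TPM, against 1.65% to 4.1% in the other 5. Mitochondrial genes held 9.48%, 10.8% and 13.2% of TPM in lycorine and 12.9%, 19.7% and 20.2% in vehicle, highest in vehicle 2 and 3. Vehicle 3 held the lowest level of 4 of the 9 factors and the highest of 2. The comparison used limma on log2(TPM + 1), two-sided, over the 13854 rows whose mean reached 1 TPM, with Benjamini-Hochberg adjustment over all of them. In that fit 0 rows passed an adjusted p of 0.05 (0.0% of the rows tested), and 476 had an unadjusted p under 0.05. Of the 9 factors 8 reached the filter and 0 of them passed. The adjusted p-values of the 9 lay between 0.832 and 0.942 by limma, with that of Onecut1 taken from a fit without the filter. Median-of-ratios scaling between libraries gave all tested rows a median log2 fold change of -0.02, in place of 0.22. Each factor also had an exact permutation test over the 20 assignments of 3 against 3, two-sided, in which 0.1 is the smallest possible p.

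The order of the factors by mean TPM over all 6 libraries was Cebpa (70.1), Cebpb (64.3), Hnf4a (50.2), Nr2f6 (27.8), Foxa3 (19.5), Foxa2 (5.24), Foxa1 (5.02), Prox1 (3.85) and Onecut1 (0.618). Some steps in this order were held by every library and others were not. Hnf4a lay above Nr2f6, Foxa3 above Foxa2, and Prox1 above Onecut1 in 6 of 6 libraries. Foxa2 lay above Foxa1 in 3 of 6 libraries, Cebpa above Cebpb in 4, and Foxa1 above Prox1 in 4, so these neighbours did not differ beyond the spread between libraries. On GRCm38 5 of the genes lie on the minus strand, with Foxa1 (ENSMUSG00000035451) on chromosome 12 from 57540628 to 57546916 and Foxa2 (ENSMUSG00000037025) on chromosome 2 from 148042877 to 148046969. Foxa3 (ENSMUSG00000040891) lies on chromosome 7 from 19013284 to 19023538, and Prox1 (ENSMUSG00000010175) on chromosome 1 from 190118035 to 190170714. Nr2f6 (ENSMUSG00000002393) lies on chromosome 8 from 71374123 to 71381960.

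**Figure D1:**
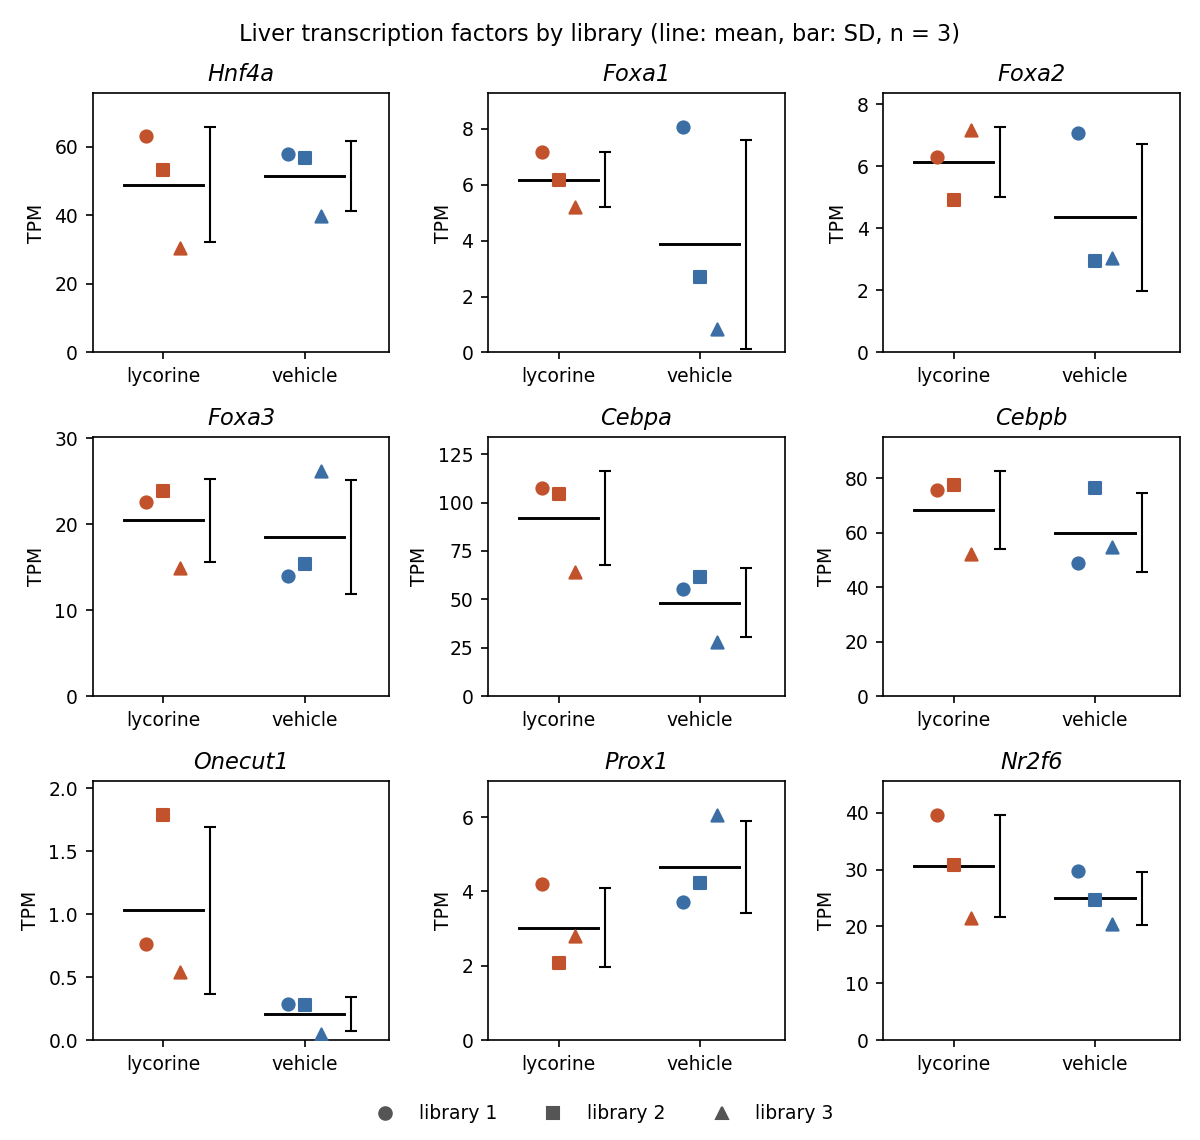
Level of each of the 9 factors in TPM (vertical axis, from 0, own scale per panel) in the 3 lycorine and 3 vehicle libraries, with marker shape giving the library number, a line the mean and a bar the SD. Cebpa and Onecut1 are the panels in which every lycorine library lies above every vehicle library.

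Hnf4a, at the head of the circuit, was at 63.1, 53.2 and 30.5 TPM in lycorine and at 57.9, 56.8 and 39.7 TPM in vehicle. Its groups overlapped, and the lowest library was lycorine 3 followed by vehicle 3. The means were 48.9 ± 16.7 TPM in lycorine and 51.5 ± 10.2 TPM in vehicle (SD, n = 3 each). The log2 fold change was -0.11 (SE 0.36, 95% interval -0.96 to 0.73). The adjusted p by limma was 0.942 and the exact permutation p was 0.8. Without lycorine 3 the log2 fold change was 0.19, and with median-of-ratios scaling between libraries it was -0.42. The 5 named genes whose log2 levels followed Hnf4a most closely over the 6 libraries, out of 6238 with a mean of at least 5 TPM, had Pearson correlations of 0.968 to 0.987. They were Rps6-ps4, a processed pseudogene, Rnaset2b, a ribonuclease with a near-identical copy, Sat1, which acetylates polyamines, Scd1, a fatty acid desaturase, and Pelo, a factor that rescues stalled ribosomes. The first pair can share reads with related genes and their values are uncertain. These correlations are descriptions over 6 shared libraries, and among the factors with a mean of at least 5 TPM only Nr2f6 had a correlation with Hnf4a above 0.6, at 0.794.

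Hnf4a (ENSMUSG00000017950), on chromosome 2 from 163506808 to 163572910 (GRCm38, plus strand), has more than 1 start. The upstream start gives the P2 isoforms known from fetal liver, pancreas and gut, and the downstream start gives the P1 isoforms of adult liver. A gene-level value adds both and cannot tell them apart. RefSeq places the starts 40298 bases from each other on GRCm38.p6, and the 250 bases before each are shown because the gene-level value merges transcripts from both. Capitals mark letters of another factor of the circuit.
Hnf4a P2, chr2:163506607-163506856, plus strand: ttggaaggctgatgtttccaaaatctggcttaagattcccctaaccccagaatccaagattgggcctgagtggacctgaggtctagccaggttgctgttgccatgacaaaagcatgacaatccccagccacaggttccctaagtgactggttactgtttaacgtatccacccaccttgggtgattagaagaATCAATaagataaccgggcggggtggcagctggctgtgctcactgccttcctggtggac
Hnf4a P1, chr2:163546905-163547154, plus strand: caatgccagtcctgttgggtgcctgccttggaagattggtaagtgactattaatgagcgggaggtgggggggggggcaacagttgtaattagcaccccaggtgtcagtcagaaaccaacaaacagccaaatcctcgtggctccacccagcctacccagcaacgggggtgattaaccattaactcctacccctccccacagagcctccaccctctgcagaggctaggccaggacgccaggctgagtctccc
The capitals in P2 are ATCAAT, the reverse complement of the ONECUT letters ATTGAT, at position -59 from the start. P1 holds none of the motifs given here and has no capitals. Of 32851 RefSeq promoter windows of 250 bases, 7.4% held ATTGAT or ATCGAT on either strand. Such a match is a description of letters and not a measured binding site. The antisense gene Hnf4aos shares 34913 bases of genomic span with Hnf4a, including the P2 start, and was at 1.4, 1.92 and 7.67 TPM in lycorine and at 0.90, 2.47 and 31.6 TPM in vehicle. It was highest in library 3 of each group, where Hnf4a was lowest.

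Nr2f6, an orphan nuclear receptor of the COUP-TF family that mostly represses transcription, was at 39.5, 30.8 and 21.5 TPM in lycorine and at 29.8, 24.6 and 20.4 TPM in vehicle. The groups overlapped, and library 3 was the lowest of each. The log2 fold change was 0.26, with an SE of 0.33 and an adjusted p of 0.859 by limma, and it was -0.04 with median-of-ratios scaling. It was 0.06 without lycorine 1 and 0.49 without lycorine 3. Nr2f6 overlaps Ocel1 on the opposite strand over 5239 bases of genomic span, and Ocel1 was at 18.6 to 21 TPM in lycorine and 10.5 to 18.2 TPM in vehicle. The use of strand in counting is not given in the sources used here, so reads of such partners cannot be told apart.

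Among the FOXA pioneer factors, Foxa3 was the most abundant and no member passed the test between groups. Foxa1 was at 7.15, 6.18 and 5.20 TPM in lycorine and at 8.05, 2.68 and 0.85 TPM in vehicle. The highest and the lowest library were both vehicle ones, and the lycorine libraries lay between them. By limma the log2 fold change of Foxa1 was 0.85 (SE 0.55, 95% interval -0.44 to 2.15, adjusted p = 0.832). Leaving out vehicle 3 gave 0.31, and leaving out vehicle 1 gave 1.45. Foxa2, which acts with Foxa1 in liver specification and in bile duct growth control, was at 6.31, 4.93 and 7.16 TPM in lycorine and at 7.08, 2.94 and 3.04 TPM in vehicle. Again vehicle 1 was level with the lycorine libraries, while the other vehicle libraries were lower. For Foxa2 limma gave a log2 fold change of 0.49 (SE 0.37, adjusted p = 0.832), 0.31 without vehicle 2 and 0.83 without vehicle 1. Foxa3, the FOXA member that is most abundant in adult hepatocytes, was at 22.6, 23.9 and 14.9 TPM in lycorine and at 14.0, 15.4 and 26.2 TPM in vehicle. Its highest library was vehicle 3, in which Foxa1 had its lowest value. The log2 fold change of 0.16 (SE 0.35, adjusted p = 0.921 by limma) had the opposite sign under median-of-ratios scaling, quantile normalization and scaling to protein-coding nuclear genes, and was -0.001 without vehicle 1.

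Within a library the makeup of the family does not move with scaling. Foxa1 made up 19.8%, 17.7% and 19.1% of summed Foxa TPM in lycorine and 27.6%, 12.8% and 2.83% in vehicle. The lycorine shares lay close together and the vehicle shares were spread around them. Foxa3 made up 62.7%, 68.3% and 54.7% in lycorine and 48.1%, 73.2% and 87.1% in vehicle, and Foxa2 the remainder. Exact permutation p-values for the shares of Foxa1, Foxa2 and Foxa3 were 0.7, 0.5 and 0.6, and 0.827, 0.78 and 0.78 after Benjamini-Hochberg adjustment over the 13 permutation tests. Without vehicle 3 the differences in the shares of Foxa1 and Foxa3 changed sign, to -1.35 and 1.23 percentage points, in place of 4.44 and -7.58. Without lycorine 3 that of Foxa2 changed sign, to -0.34 in place of 3.14 percentage points.

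**Figure D2:**
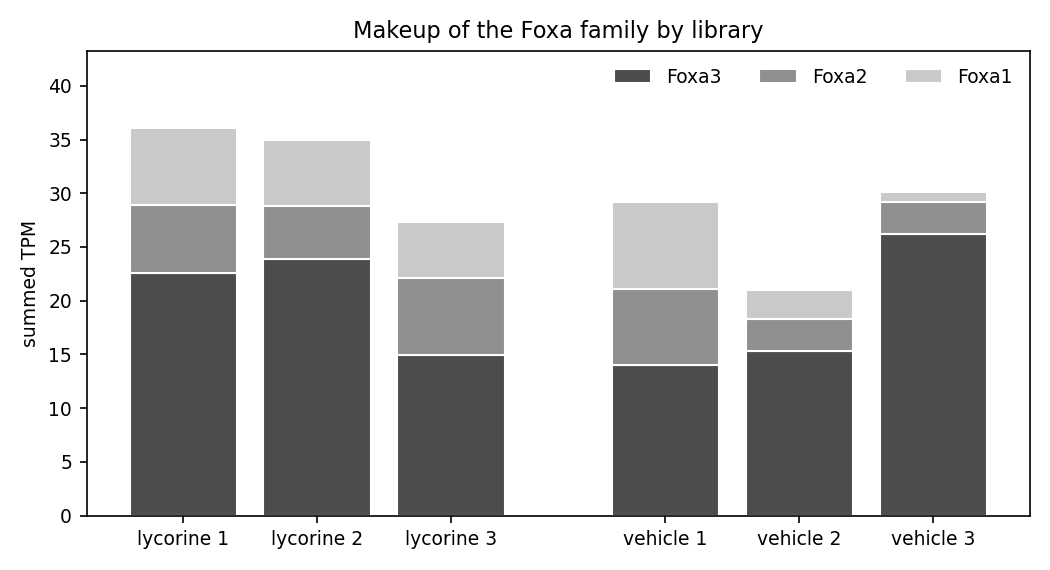
Summed TPM of Foxa3, Foxa2 and Foxa1 (stacked bars, from 0) in each library. Foxa1 is a visible part of all 3 lycorine bars and of vehicle 1, and is thinnest in vehicle 3 at 0.85 TPM.

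Bile duct cells also express FOXA factors, and bile duct markers moved across the libraries. The summed TPM of 12 markers, among them Krt19 and Krt7, was 273.6, 178.1 and 79.8 in lycorine and 290.0, 67.1 and 76.1 in vehicle, with none of the 12 at 0 in any library. Vehicle 1 was highest both in these markers and in Foxa1, and lycorine 1 was second in both. Lycorine 3 and vehicle 3 had similar marker sums, but these were made up of differing genes. Spp1, the most abundant of the 12, was at 33.35 TPM in lycorine 3 and 16.79 TPM in vehicle 3. Cftr was at 0.34 TPM in lycorine 3 and 8.25 TPM in vehicle 3. Foxa1 was at 5.20 TPM in lycorine 3 and 0.85 TPM in vehicle 3. Foxa2 was highest in lycorine 3, where the marker sum was low. The part of bile duct cells in the Foxa1 and Foxa2 values was not tested. In bulk liver RNA fewer cells of a type and less RNA per cell cannot be told apart.

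Cebpa and Cebpb, the main C/EBP factors of the liver, were the most abundant of the 9, and neither passed the test. C/EBP alpha sustains the metabolic programme of the quiescent hepatocyte, and C/EBP beta is induced in regeneration and in the acute phase. Cebpa was at 107.7, 104.2 and 64.0 TPM in lycorine and at 55.4, 61.5 and 28.02 TPM in vehicle. Every lycorine library lay above every vehicle library, the nearest being lycorine 3 and vehicle 2. The means were 91.95 ± 24.3 TPM in lycorine and 48.3 ± 17.8 TPM in vehicle (SD, n = 3 each), a ratio of means of 1.90. The log2 fold change was 0.95 (SE 0.40, 95% interval 0.03 to 1.88), with a limma unadjusted p of 0.0448, an adjusted p of 0.832 and an exact permutation p of 0.1. Such upward separation of the groups was seen in 9.6% of all tested rows, and downward separation in 1.01%. Median-of-ratios scaling changed these shares to 3.2% upward and 3.65% downward. With median-of-ratios scaling the groups overlapped, with lycorine 3 at 62.1 and vehicle 2 at 83.4, and the log2 fold change was 0.65. The groups overlapped as well when values were scaled to protein-coding nuclear genes, with a log2 fold change of 0.70. Without vehicle 3 it was 0.61, and it stayed above 0 under all 18 alternatives. Vehicle 3, lowest in Cebpa, also had the lowest protein-coding share and the highest mitochondrial share. Vehicle 1 had a mitochondrial share of 12.9%, within the lycorine range, and a Cebpa level below every lycorine library. That is 1 library. The part of this composition in the Cebpa value was not tested.

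Cebpb was at 75.5, 77.7 and 52.1 TPM in lycorine and at 49.1, 76.6 and 54.6 TPM in vehicle. Its groups overlapped, and vehicle 2 was as high as the highest pair of lycorine libraries. By limma its log2 fold change was 0.19, with an SE of 0.32 and an adjusted p of 0.893, and had the opposite sign under median-of-ratios scaling, quantile normalization and scaling to protein-coding nuclear genes. It was 0.06 without vehicle 1 and 0.37 without vehicle 2 or without lycorine 3. The ratio of Cebpb to Cebpa within a library, which no scaling changes, was 0.701, 0.746 and 0.814 in lycorine and 0.886, 1.25 and 1.95 in vehicle. All lycorine ratios lay below all vehicle ratios, and the vehicle ratios were the more widely spread. Of this pair Cebpa alone had groups apart in its own level, and Cebpb overlapped. The share of all rows whose ratio to Cebpa separates was not computed, so this separation has no background beside it. The difference in log2 ratio of TPM + 1, lycorine minus vehicle, was -0.77, with an exact permutation p of 0.1, the smallest possible, and 0.433 adjusted over the 13 permutation tests. It was -0.48 without vehicle 3. Relative to Hnf4a, a comparison added after the values were seen and therefore not tested, Cebpa stood at 1.71, 1.96 and 2.10 in lycorine and at 0.956, 1.08 and 0.706 in vehicle. Upward separation of the ratio to Hnf4a was seen in 13.9% of all tested rows, and downward separation in 0.657%. Of the other factors, Nr2f6 and Onecut1 also had higher ratios to Hnf4a in every lycorine library, and the other 5 overlapped.

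**Figure D3:**
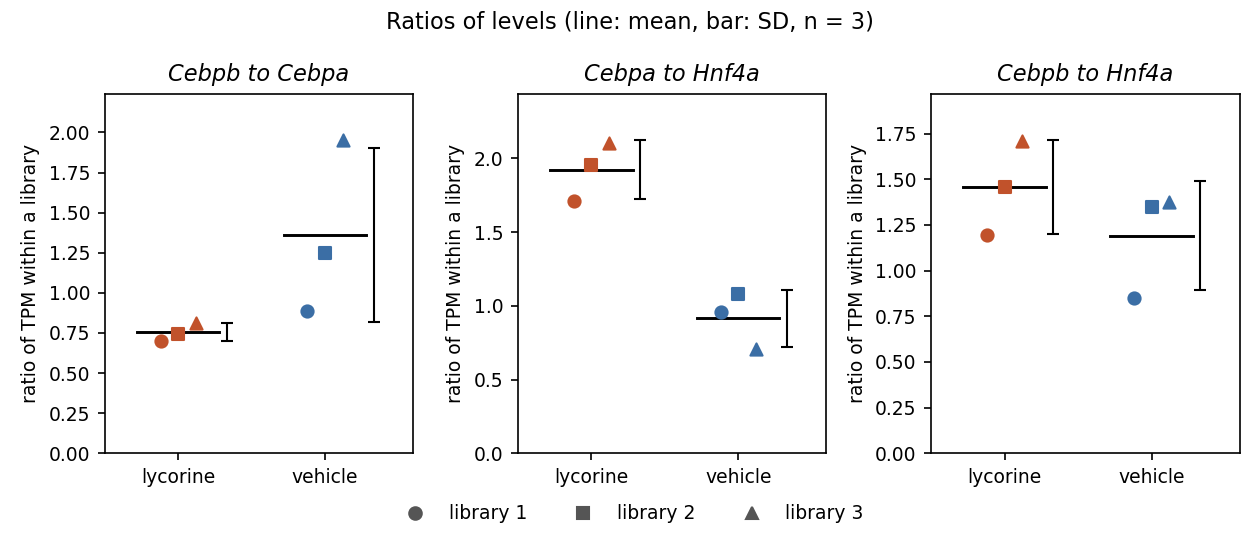
Ratios of TPM within each library (vertical axes, from 0) for Cebpb to Cebpa, Cebpa to Hnf4a and Cebpb to Hnf4a, with lines at the mean and bars of 1 SD (n = 3). Lycorine and vehicle libraries do not overlap in the first pair of panels and overlap in the last.

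Cebpa (ENSMUSG00000034957) lies on chromosome 7 from 35119293 to 35121928 and Cebpb (ENSMUSG00000056501) on chromosome 2 from 167688915 to 167690418 (GRCm38, plus strand). Both are compact, with spans of 2636 and 1504 bases, where Hnf4a spans 66103 and Prox1 52680. The 250 bases before the Cebpa start are shown because Cebpa was the tested factor whose groups were apart, and for contrast with Hnf4a.
Cebpa, chr7:35119043-35119292, plus strand: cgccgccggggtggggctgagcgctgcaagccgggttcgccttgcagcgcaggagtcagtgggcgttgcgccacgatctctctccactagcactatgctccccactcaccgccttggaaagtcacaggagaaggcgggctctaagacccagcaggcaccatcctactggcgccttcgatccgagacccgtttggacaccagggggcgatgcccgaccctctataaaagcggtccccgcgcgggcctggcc
This stretch holds none of the motifs given here, so it has no capitals, and nothing about binding follows from that. The motifs, on both strands, were TGTTTAC for FOXA, TTGCNNAA for C/EBP, ATTGAT or ATCGAT for ONECUT, CAAAGTCCA for HNF4 and the E-box CACGTG. They were found in 3.17%, 9.56%, 7.4%, 0.384% and 6.02% of the 32851 windows. Among the 13 windows of the 9 factors they were found in 1, 0, 2, 0 and 1. The FOXA letters lay in Foxa1 itself, as GTAAACA from position -141. Cebpa overlaps the antisense gene Gm45091, which was at most 1.30 TPM in any library, and Cebpb overlaps Tmem189 on the opposite strand, at 3.0 to 5.81 TPM in lycorine and 1.35 to 6.21 TPM in vehicle.

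Onecut1 was the least abundant factor, at 0.76, 1.79 and 0.54 TPM in lycorine and at 0.29, 0.28 and 0.05 TPM in vehicle. All lycorine libraries lay above all vehicle libraries, but every value was under 2 TPM and the mean over all libraries, 0.618 TPM, was below the filter. The means were 1.03 ± 0.667 TPM in lycorine and 0.207 ± 0.136 TPM in vehicle (SD, n = 3 each). In a fit without the filter, over 26731 rows of which 0 passed (0.0%), the log2 fold change was 0.71 (SE 0.28, 95% interval 0.01 to 1.402, limma unadjusted p = 0.0467, adjusted p = 0.860). The exact permutation p was 0.1. Upward separation was seen in 6.3% of those rows. The groups remained apart with median-of-ratios scaling, as did 2.76% of unfiltered rows upward, and with scaling to protein-coding nuclear genes, as did 4.31% of the unfiltered coding rows. Without lycorine 2 the log2 fold change was 0.46. With a pseudocount of 0.1 it was 1.85, and with 5 it was 0.21, since at this level the constant added sets much of the size. Onecut2, its closest relative, was 6.47 to 101.8 times as abundant as Onecut1 in the same libraries. It was at 9.87, 11.6 and 21.3 TPM in lycorine and at 9.67, 7.11 and 5.09 TPM in vehicle, apart by a narrow margin between lycorine 1 and vehicle 1. The log2 fold change of Onecut2 was 0.85 (SE 0.38, limma unadjusted p = 0.0596, adjusted p = 0.832). Upward separation was seen in 9.6% of all tested rows. Under median-of-ratios scaling 0 of the 6 tested relatives of the factors, Onecut2 among them, were apart upward.

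Onecut1 (ENSMUSG00000043013) lies on chromosome 9 from 74861921 to 74891781 (plus strand). The bases before its start are shown because its groups were apart under the scalings above, with capitals marking the E-box CACGTG.
Onecut1, chr9:74861671-74861920, plus strand: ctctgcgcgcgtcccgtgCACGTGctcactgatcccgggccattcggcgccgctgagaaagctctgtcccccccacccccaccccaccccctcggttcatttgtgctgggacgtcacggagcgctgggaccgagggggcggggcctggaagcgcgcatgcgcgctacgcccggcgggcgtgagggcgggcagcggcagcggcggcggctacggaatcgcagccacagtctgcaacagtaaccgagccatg
The E-box began at position -232, and GC made up 71.6% of the window, against 66.4% for Cebpa and 57.6% for Hnf4a P1. Onecut1 overlaps Gm20649 on the same strand, which was listed at 0 in 5 libraries and at 0.52 TPM in vehicle 3.

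Prox1, a homeobox factor that acts as a corepressor of HNF4A in hepatocytes and specifies lymphatic endothelium, was at 4.19, 2.08 and 2.81 TPM in lycorine and at 3.71, 4.23 and 6.06 TPM in vehicle. Lycorine 1 lay within the vehicle range, and the highest library was vehicle 3. By limma the log2 fold change of Prox1 was -0.51 (SE 0.33, 95% interval -1.28 to 0.27, adjusted p = 0.832), with an exact permutation p of 0.2. It kept its sign in all 17 alternatives, between -0.77 and -0.27, and was -0.33 without lycorine 2 and -0.34 without vehicle 3. Prox1 marks lymphatic endothelium as well as hepatocytes. Of 5 lymphatic markers 4 were tested, with 2 lower and 2 higher in lycorine. Of the 4, 1, Reln, had groups apart downward, beside 1.01% of all tested rows. With median-of-ratios scaling 2 did, beside 3.65% of all rows. The sum of all 5 was 81.8, 91.1 and 26.5 TPM in lycorine and 127.0, 28.8 and 35.3 TPM in vehicle. Most of it was Ccl21a, at 67.2, 82.9 and 21.8 TPM in lycorine and 101.3, 19.9 and 24.5 TPM in vehicle. Mmrn1 was at 0 in lycorine 3 and at most 0.25 TPM elsewhere. Of 13 sinusoidal markers 9 were tested and all 9 had a log2 fold change below 0, with a median of -0.55 and 0 called. Of the 9, 3 had groups apart downward, beside 1.01% of all tested rows. Under median-of-ratios scaling 4 did, beside 3.65% of all rows. The sum of all 13 was 61.9 to 103.2 TPM in lycorine and 60.7 to 176.1 TPM in vehicle. The part of endothelial cells in the Prox1 value was not tested. Prox1 overlaps the antisense genes Gm28172, at most 1.13 TPM in any library, and Prox1os, at 3.69, 6.02 and 2.60 TPM in lycorine and at 5.25, 5.49 and 2.72 TPM in vehicle.

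**Figure D4:**
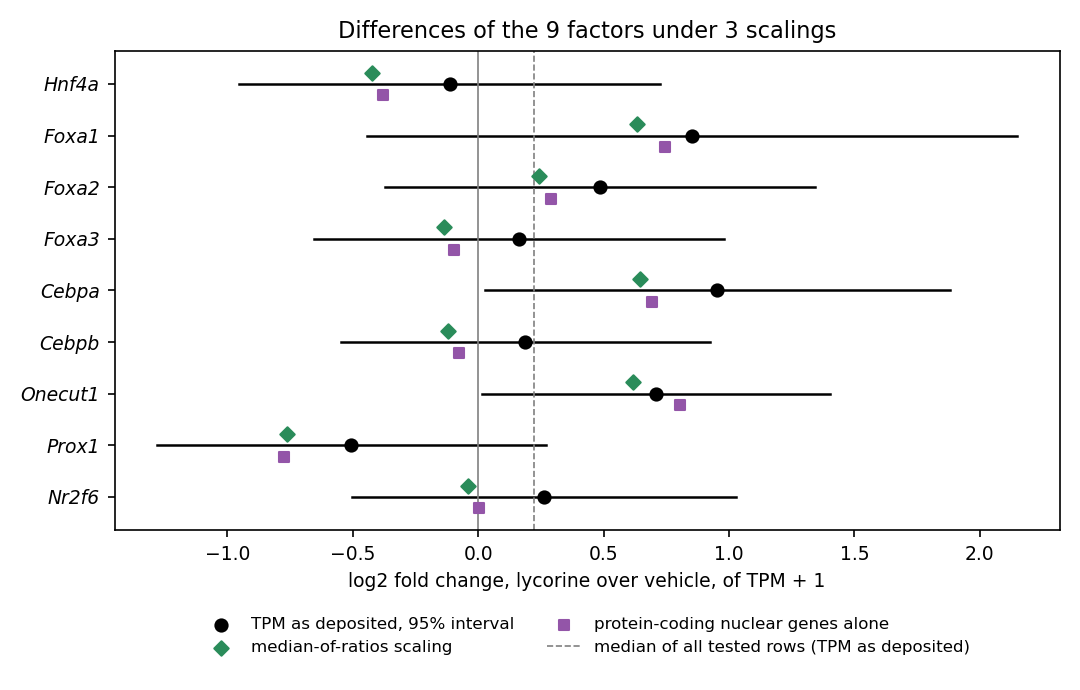
Log2 fold change of TPM + 1, lycorine over vehicle (horizontal axis), with limma's 95% interval for the deposited TPM (black) and the value under median-of-ratios scaling (diamonds) and protein-coding nuclear scaling (squares); Onecut1 is from fits without the filter. The intervals of Cebpa and Onecut1 lie above 0 without adjustment for the number of rows, and Foxa3, Cebpb and, under median-of-ratios scaling, Nr2f6 change sign.

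Across the 8 tested factors 6 had a log2 fold change above 0 and 2 below, with a median of 0.22, and the median of all tested rows was also 0.22. In all tested rows 9680 were above 0 and 4174 below. The tally turned with scaling: under median-of-ratios scaling 3 factors were above 0 and 5 below, with a median of -0.08 against -0.02 over all rows, and with quantile normalization or protein-coding nuclear genes alone 4 were above and 4 below. Of the 8, 1 had groups apart upward, near the 9.6% of all tested rows, and 0 did under median-of-ratios scaling.

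Relatives of these factors in the same families were mostly weak in liver. Of 10 listed, 6 were tested, 3 were above 0 and 3 below, and 0 passed limma, with a median of 0.05 that was -0.12 under median-of-ratios scaling. It was 0.31 without lycorine 2, 0.40 without vehicle 3 and -0.11 without vehicle 2. Hnf4g, the other HNF4 gene, was between 0.04 and 3.02 TPM in lycorine and between 0 and 2.91 TPM in vehicle, and Onecut3 was listed at 0 throughout. Nr2f2, also called COUP-TFII, was at 4.64, 5.39 and 4.83 TPM in lycorine and at 3.01, 3.20 and 2.13 TPM in vehicle. Its groups were apart, with a log2 fold change of 0.67 (SE 0.28, limma unadjusted p = 0.0471, adjusted p = 0.832). Of the 6 tested relatives 2, Nr2f2 and Onecut2, were apart upward, beside 9.6% of all tested rows. Under median-of-ratios scaling 0 were apart upward and 1 downward, beside 3.2% and 3.65% of all rows. Cebpd, another acute phase C/EBP gene, was at 5.49 to 12.6 TPM in lycorine and 4.45 to 8.57 TPM in vehicle, and Ddit3, the stress-induced member CHOP, was at 16.8 to 25.6 TPM in lycorine and 14.1 to 36.5 TPM in vehicle.

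Of 20 other liver transcription factors 14 had a log2 fold change above 0 and 6 below, with a median of 0.21 and 0 called by limma. Under median-of-ratios scaling 10 were above 0 and 10 below, with a median of -0.08, and the median was -0.05 without vehicle 2. On the deposited TPM 3 of the 20 had groups apart upward, beside 9.6% of all tested rows. With median-of-ratios scaling 0 were apart upward and 1 downward, beside 3.2% and 3.65% of all rows. Rxra, the common partner of many nuclear receptors, was at 53.6, 58.4 and 45.3 TPM in lycorine and at 35.8, 37.5 and 42.4 TPM in vehicle, apart by a small margin (log2 fold change 0.43, SE 0.27, limma adjusted p = 0.832). Klf15, a factor of fasting metabolism, was at 33.8 to 54.6 TPM in lycorine and 15.3 to 47.1 TPM in vehicle. Xbp1, a factor of the secretory pathway, was at 18.2 to 44.2 TPM in lycorine and 14.9 to 26.5 TPM in vehicle. Of 11 tested cofactors 5 were above 0 and 6 below, with a median of -0.09 and 0 called. Among them Hdac3, a corepressor enzyme, was at 17.7 to 23.1 TPM in lycorine and 11.5 to 22.3 TPM in vehicle, and Ep300, a coactivator, was at 0.76 to 1.06 TPM in lycorine and 0.76 to 9.43 TPM in vehicle, highest in vehicle 3. The median of the cofactors was 0.31 without vehicle 3 and -0.41 without vehicle 2. Under median-of-ratios scaling it was -0.305 against -0.02 over all rows, with 4 above 0 and 7 below. In that scaling 1 cofactor had groups apart downward, beside 3.65% of all tested rows.

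Products of hepatocytes, which these factors drive, lay mostly above 0. Of 25 matched genes 24 had a log2 fold change above 0 and 1 below, with a median of 0.38 against 0.22 over all rows, and 0 passed limma. Apoh, a plasma lipid-binding glycoprotein, was at 1704, 1794 and 1431 TPM in lycorine and at 1063, 1252 and 930 TPM in vehicle. Its libraries did not overlap, with a log2 fold change of 0.61 (SE 0.26, limma unadjusted p = 0.0479, adjusted p = 0.832). Ahsg, the plasma protein fetuin-A, was at 3867 to 9445 TPM in lycorine and 1786 to 4370 TPM in vehicle, and overlapped. In 4 of the 25 the groups were apart upward and in 0 downward, beside 9.6% and 1.01% of all tested rows. Under median-of-ratios scaling 17 were above 0 and 8 below, with a median of 0.07 and 0 apart in either direction, beside 3.2% upward and 3.65% downward in all rows. The sum of the list was 57300 TPM in vehicle 3 and 97400 to 128200 TPM in the other libraries. Vehicle 3 had the highest mitochondrial share, 20.2%, and vehicle 2, with 19.7%, had a list sum of 97400 TPM. Rows without a name in the annotation held 10.75% of TPM in vehicle 3 and at most 4.1% elsewhere. The part of this composition in the list was not tested. Without any 1 library the list's median stayed between 0.21 and 0.54. The median of all rows moved too: without vehicle 3 it was 0.19, beside 0.21 for the list. Without vehicle 2 it was 0.10, beside 0.54 for the list.

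Acute phase genes, among them C/EBP beta targets, were split in direction on the deposited TPM. Of 15 tested 7 were above 0 and 8 below, with a median of -0.09 against 0.22 over all rows. Of these 0 were called by limma and 0 had groups apart. Under median-of-ratios scaling 5 were above 0 and 10 below, with a median of -0.39 against -0.02 over all rows. In that scaling 1 had groups apart downward, beside 3.65% of all tested rows. With quantile normalization the median was -0.06 against 0.07. Orm2, an acute phase glycoprotein, varied widely within groups, at 435.0, 49.8 and 293.5 TPM in lycorine and at 87.6, 34.2 and 69.1 TPM in vehicle, and its relatives can share reads. Saa3, a serum amyloid gene, was at 11.6 to 20.2 TPM in lycorine and 16.6 to 31.5 TPM in vehicle. Leaving out single libraries gave medians between -0.23 and 0.38, the highest without lycorine 2. Fetal hepatocyte genes were weakly expressed, with 3 of 7 tested. All 3 were above 0, with a median of 0.84, 0 called by limma and 0 with groups apart. The median was 0.655 with median-of-ratios scaling, against -0.02 over all rows. It was 0.26 without vehicle 3 and -0.04 with array quality weights. Igf2bp3 was at 2.52, 3.52 and 4.30 TPM in lycorine and at 2.37, 2.97 and 0.11 TPM in vehicle. Afp, the fetal albumin relative, was at 2.72, 0.50 and 10.5 TPM in lycorine and at 2.50, 0.38 and 0.40 TPM in vehicle, and lycorine 3 alone was above 3 TPM.

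Markers of other cells set these levels beside the makeup of the tissue. Of 11 tested Kupffer cell markers all 11 had a log2 fold change below 0, with a median of -0.92, 6 with groups apart downward, beside 1.01% of all tested rows, and 0 called over all rows by limma. Under median-of-ratios scaling all 11 were again below 0 and 6 apart downward, beside 3.65% of all rows. The sum of all 12 listed markers was 160.8 to 431.0 TPM in lycorine and 256.4 to 621.0 TPM in vehicle. Bile duct markers had a median of 0.25, with 8 of 11 above 0. Over all tested rows the median was 0.22, with 9680 of 13854 above 0. The median of bile duct markers was -0.02 without lycorine 1 and 0.87 without vehicle 1. With median-of-ratios scaling it was 0.11 against -0.02 over all rows, with 7 of 11 above 0. The median of stellate markers was 0.05, and -0.27 to 0.50 without single libraries, lowest without lycorine 1 and highest without vehicle 1. That of lymphocyte markers was -0.32, and -0.73 to 0.22 without single libraries, at the same extremes. Cebpb is also expressed in macrophages, and the part of these cells in its value was not tested.

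**Figure D5:**
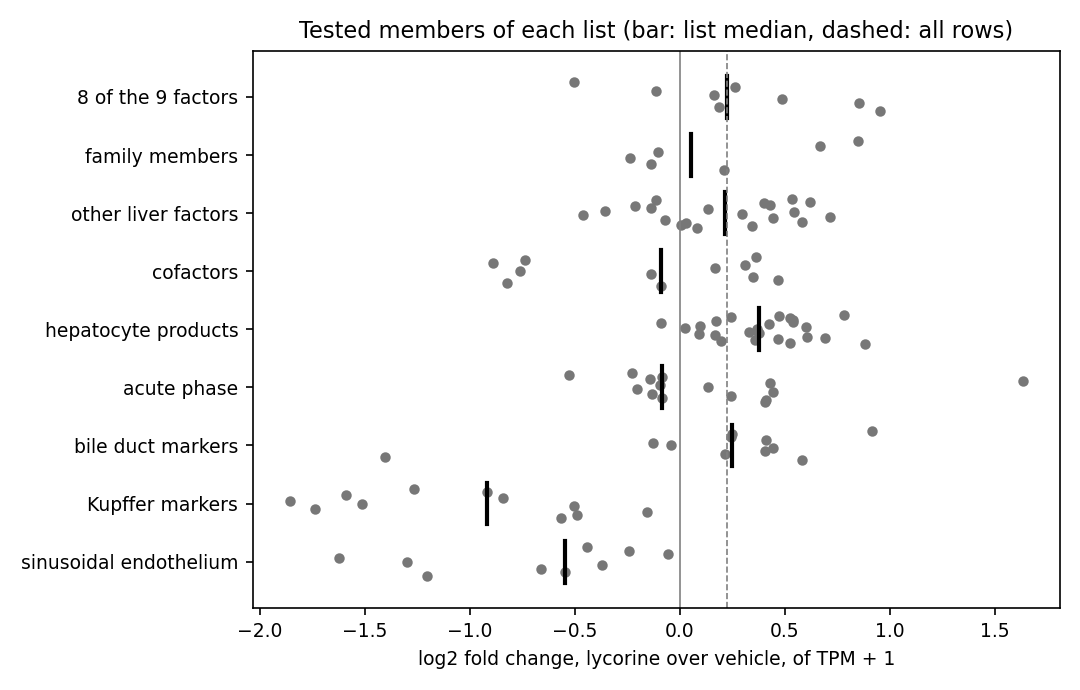
Log2 fold change of TPM + 1, lycorine over vehicle (horizontal axis), of every tested gene in the lists shown (points), with the list median (bar) and the median of all tested rows (dashed line, 0.22). The fetal hepatocyte, lymphatic, stellate and lymphocyte lists are not drawn. The factors are spread around the dashed line, hepatocyte products lie mostly to its right and Kupffer cell markers lie left of 0.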

How the data were processed

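Liver RNA of Mdr2 knockout mice given lycorine or vehicle was analysed in 6 libraries, 3 per group, per the labels. The authors deposited 1 table named for FPKM, but each column sums to 1000000 within rounding, so the deposited values are TPM. The test planned for FPKM was run on them. Columns without the drug's short form were taken as vehicle. Builds named in the submitters' processing notes are GRCm38 and mm10. The aligner, quantifier and annotation were not given in the sources used here.

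Of 58601 rows, 52135 had a name in GENCODE M21 on GRCm38. Rows whose mean reached 1 TPM were tested with limma 3.58.1 in R 4.3.3 on log2(TPM + 1) with a variance trend. A fold change on that scale understates that of weakly expressed genes. Single values had exact permutation tests. The procedure was tested on simulated data. Named genes were the 9 factors, the 5 most like Hnf4a, genes overlapping a factor, and up to 4 of the smallest p per list. Others named are Alb and Ttr, Abcb4, Hnf4g, Onecut3, Mmrn1, Krt7 and Krt19, chosen after their values were seen. Not every gene picked this way is reported here. Of list entries, Tf was not matched. Promoters are from RefSeq (GRCm38.p6), found for all 9 factors. The members and lists were chosen with earlier results of these data known. Alternatives covered pseudocount, filter, scaling, variance model, weights, replicate block and left-out libraries. The ratios to Hnf4a and the fits of Onecut1 without the filter were chosen once the data were known.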

Additional observations from a re-analysis of the deposited data

How the results depend on the processing

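The count of rows called was 0 in limma and became 1 with a pseudocount of 0.1 and 1 with array quality weights, and 0 to 2 without single libraries (1 without lycorine 2, 2 without vehicle 2). The count of the 9 factors called was 0 under all 18 alternatives. For Foxa3, Cebpb and Nr2f6 the log2 fold change was -0.138, -0.12 and -0.04 with median-of-ratios scaling, with or without the filter. Quantile normalization gave -0.127 for Foxa3 and -0.117 for Cebpb, while scaling to coding nuclear genes gave -0.096 for Foxa3 and -0.076 for Cebpb. Without single libraries Hnf4a ranged from -0.326 to 0.188 and Foxa3 from -0.001 to 0.427. Without both vehicle 3 and lycorine 3, Hnf4a was at 0.015, and the differences in the shares of Foxa1, Foxa2 and Foxa3 were -1.45, -3.36 and 4.81 percentage points. Without single libraries these shares ranged from -1.35 to 11.05, from -0.34 to 7.21 and from -18.3 to 1.23. The cause was not tested. The Cebpb to Cebpa log2 ratio ranged from -1.03 to -0.476 without single libraries.

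The replicate numbers are not stated to pair the libraries. Same-numbered libraries had deviations correlated at 0.311, 0.0494 and 0.291, and vehicle 2 correlated best with lycorine 1, at 0.214. With the replicate block 0 rows and 0 of the 9 factors were called, and Cebpa had an adjusted p of 0.595. Depth is unknown for these values, so no counting error can be set beside low levels such as those of Onecut1.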
